A study of Mus musculus with 32 samples.

Results

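The chromatin contacts described here are those of the promoter of Lifr, the receptor subunit for leukaemia inhibitory factor (LIF), in small-intestinal organoids of the mouse. They were measured by Capture-C, in which crosslinked chromatin is cut, neighbouring ends are ligated, and the ligation products of chosen bait fragments are enriched and counted. The Lifr bait was 1 of 14 baits at 12 genes. Members were the pairs of this bait with another fragment at a distance from 10 kb up to 1 Mb: 112 of the 2115 pairs of the Lifr bait, of 1237 pairs of all baits in that range and of 30435 pairs in all. Each of the 112 held at least 1 read, and among the listed pairs the choice used distance only, not counts or scores.

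All organoids came from aged C57BL/6JRj mice and were cultures of epithelium from the small intestine. One condition was IFNγ (interferon gamma) at 500 pg/ml for 3 hours, given 3 days after splitting, and the other was growth medium without it. Each condition had 4 libraries, from 2 mice at 2 passages each, of 25000 cells per library, and each library was run on 4 lanes, giving 32 samples. Libraries of 1 mouse are not separate animals, so the p-values below measure the spread between libraries. The assignment of the deposited tables to the conditions is not settled, because the sample descriptions and the table names contradict each other. The tables are called control-named and IFNγ-named, every signed difference is the IFNγ-named minus the control-named value, and its sign turns if the subtraction is reversed. The data count DNA contacts, so neither the expression of Lifr nor markers of cell types could be checked.

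LIFR pairs with gp130, encoded by Il6st, to receive LIF and related cytokines, and the pair signals through JAK kinases to STAT3. Osmr, the oncostatin M receptor subunit that also pairs with gp130, is a neighbour of Lifr on chromosome 15. IFNγ acts through another receptor. A promoter can touch distant enhancers by looping of the chromatin, and contact counts also fall with distance for any fragment.

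The bait was the DpnII fragment on chromosome 15 from 7128930 to 7130283 (1354 bp, mm10). It held 3 annotated transcription start sites (TSS) of Lifr (ENSMUSG00000054263.12, + strand), at 7129559, 7129567 and 7129572, and the first exon of these transcripts. Below are the promoter inside the bait, with capitals at the GC box GGGCGG, and fragments that carry the contact results, with capitals at the DpnII site GATC that begins each. The 153 bp fragment 317.3 kb downstream is shown whole because its reads were spread evenly over libraries. Of the fragments 163.0 kb upstream and 592.2 kb downstream, which had the most reads, the first 100 bases are shown. All are the reference + strand (GRCm38).
Lifr promoter, chr15:7129322-7129571: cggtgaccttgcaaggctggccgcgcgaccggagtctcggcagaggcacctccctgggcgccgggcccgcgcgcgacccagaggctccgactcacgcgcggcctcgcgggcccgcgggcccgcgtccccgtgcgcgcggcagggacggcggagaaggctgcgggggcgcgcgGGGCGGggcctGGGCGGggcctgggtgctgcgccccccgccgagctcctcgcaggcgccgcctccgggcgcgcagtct
317.3 kb downstream, chr15:7446863-7447015: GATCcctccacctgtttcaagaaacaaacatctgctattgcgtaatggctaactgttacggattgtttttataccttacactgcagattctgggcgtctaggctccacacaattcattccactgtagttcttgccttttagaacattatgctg
163.0 kb upstream, chr15:6966442-6966541: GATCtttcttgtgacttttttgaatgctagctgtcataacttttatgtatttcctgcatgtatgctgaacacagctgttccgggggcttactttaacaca
592.2 kb downstream, chr15:7721480-7721579: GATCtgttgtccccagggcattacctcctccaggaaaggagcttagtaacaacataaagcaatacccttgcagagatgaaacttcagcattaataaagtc

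The promoter stretch was 82.4% G and C and held 2 GC boxes. A GC box on either strand was found in 35.7% of 32851 mouse promoters of 300 bases (RefSeq, GRCm38). In the 300-base Lifr promoter no GAS motif (TTCNNNGAA, the gamma-activated site), no ISRE (GAAANNGAAA, the interferon response element) and no CTCF core (CCANNAGNNGGC) was matched, against 8.30%, 3.44% and 2.43% of all promoters with one. The Osmr promoter likewise held 2 GC boxes and none of the other motifs. Among the 19 other fragments named below, 1 held a GAS and an ISRE match, the one 352.2 kb downstream. The absence of a match says only that these letters are not in these windows.

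The Lifr bait gave 1216 to 2224 reads per library, of 23037 to 37290 reads of all baits. It took 6.05% ± 1.04 of all reads over the control-named libraries and 5.71% ± 1.01 over the IFNγ-named ones (SD; n is 4 libraries per table here and below). The log2 difference of the bait total was -0.06 with an adjusted p of 0.922 (edgeR quasi-likelihood test with Benjamini-Hochberg adjustment). None of the 14 baits was called by that test (0%), and 1 had an unadjusted p under 0.05, as it also did in DESeq2. In range the Lifr pairs held 4026 reads, 2164 under the control name and 1862 under the IFNγ name, with 354 to 689 per library.

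Reads at 10 kb to 1 Mb took a larger part of the Lifr bait's reads than of the average bait's. Lifr had 31.0%, 29.8%, 28.7% and 26.3% of its reads there in the control-named libraries and 29.1%, 37.7%, 32.6% and 25.5% in the IFNγ-named libraries. The tables overlapped, with means of 28.9% ± 2.00 and 31.2% ± 5.19 and a two-sided exact permutation p of 0.486 (adjusted 0.657 over 3 shares). Across all 8 libraries the Lifr share exceeded the mean of the 13 other baits in 8 of 8, by 5.09 percentage points ± 3.21 (SD). The two-sided exact sign-flip p was 0.00781, the smallest that 8 libraries can give. That p measures the spread over libraries and not over baits, and the means of the 13 other baits ran from 16.5% to 34.3%. Lifr ranked 3 of 14, with a mean of 30.1%, below Stat3 at 34.3% and Klf4 at 33.0% and next to Esrrb at 29.9%. The SD of the Lifr share over the 8 libraries was 3.84 points. Differences between Lifr and single baits were not tested.

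**Figure D1:**
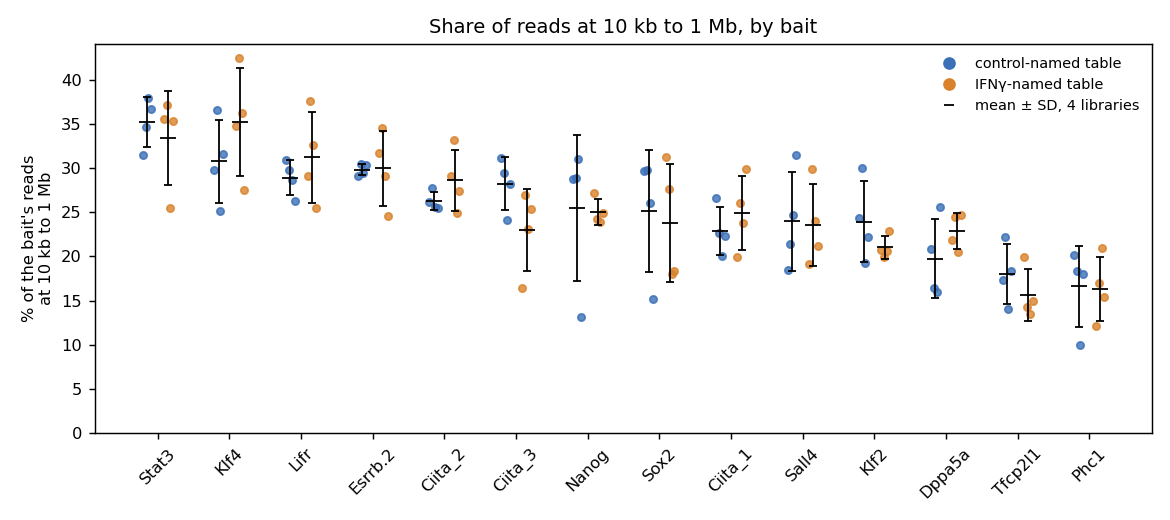
Share of each bait's reads at 10 kb to 1 Mb (percent, y axis) by bait (x axis, ordered by mean); points are libraries and black marks the mean ± SD of 4 libraries per table. Lifr is the third bait from the left, at 25.5% to 37.7%.

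Over 5 distance classes Lifr resembled Klf4 and Klf2 most, by the mean absolute difference of read shares over the 8 libraries (3.76 and 4.02 percentage points). Both encode Krüppel-like transcription factors, but Esrrb (4.25) and a Ciita bait (4.30 points) were nearly as close as Klf2. At 10 kb to 1 Mb Klf2 had 22.5% of its reads, against 30.1% for Lifr. Lifr reads under 10 kb were 6.17% ± 3.54 of the bait's total over the control-named and 6.24% ± 2.14 over the IFNγ-named libraries. Those at 10 to 100 kb were 12.03% ± 2.95 and 15.02% ± 4.13, and those at 100 kb to 1 Mb 16.9% ± 2.94 and 16.2% ± 1.26. Reads on other chromosomes were the largest class, at 36.8% ± 5.35 and 34.7% ± 4.37. The tables overlapped in every class, and each adjusted exact permutation p was 0.971.

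Contacts lay on both sides of the promoter, 57 pairs upstream and 55 downstream. The upstream part of the reads in range was 56.3%, 50.3%, 50.4% and 47.8% in the control-named libraries. In the IFNγ-named libraries it was 43.8%, 39.2%, 54.0% and 48.5%. The means, 51.2% ± 3.61 and 46.4% ± 6.35, differed by -4.83 points with overlapping libraries (exact permutation p = 0.229, adjusted 0.657).

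**Figure D2:**
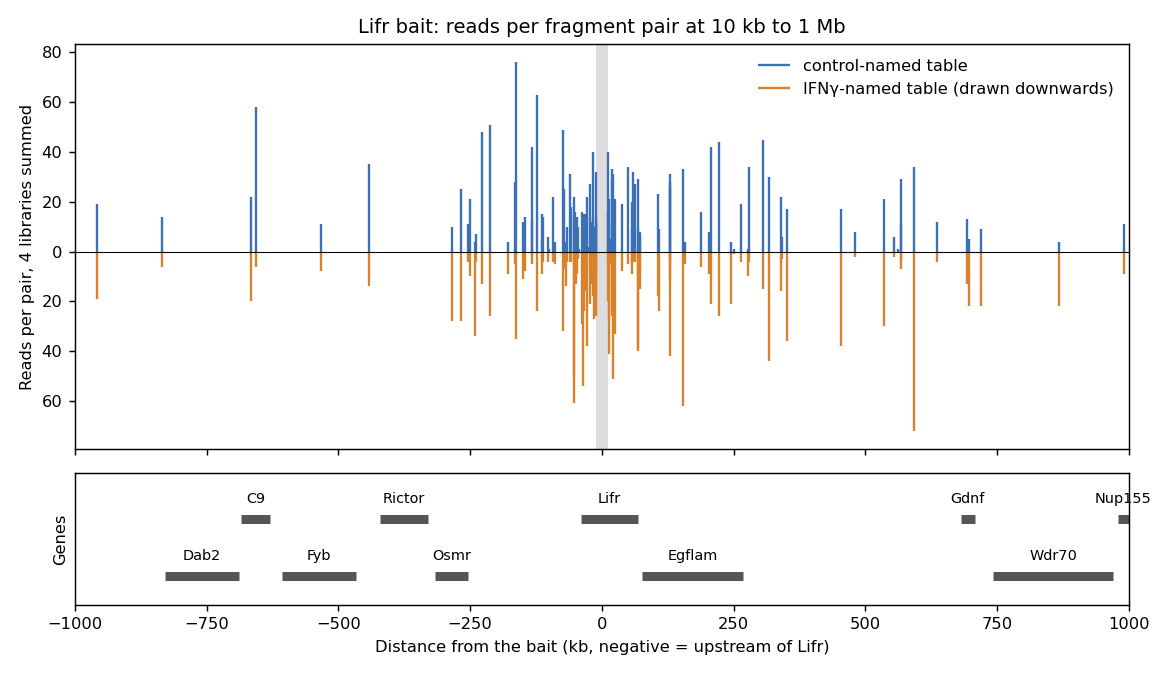
Reads of each Lifr pair (y axis, 4 libraries summed, IFNγ-named table drawn downwards) against distance from the bait in kb (x axis), with protein-coding genes as bars below; the grey band is the excluded 10 kb on either side. Both sides carry reads out to 1 Mb, and the tallest lines are 163.0 kb upstream and 592.2 kb downstream.

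Of 3687 DpnII fragments in range that were at least 101 bp, the shortest length listed in the tables, 112 had a Lifr pair (3.04%). This share was 31.3% at 10 to 20 kb upstream and 46.7% at 10 to 20 kb downstream, and 0.536% and 1.26% at 500 kb to 1 Mb. Contacted fragments had a median length of 500.5 bp, against 384 bp for the 3575 not contacted, and 43.0% against 42.2% G and C. Soft-masked repeats made up over 50% of the bases in 9.82% of contacted and 21.2% of other fragments. Motifs were sought here in the 300 bases around each fragment's midpoint, which can leave out parts of a fragment or reach past it. GAS matches were in 14.3% of these windows at contacted and 11.6% at other fragments. The CTCF core was in the windows of 0 of 112 contacted and 55 of 3575 other fragments (1.54%). With matches this rare, no contrast is read from these counts. Length, G and C content and repeats also bear on whether a fragment can be read and mapped, and their part in these shares was not tested. Contacted fragments were also more frequent near the bait, and the 2 sets were not matched for distance.

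Lifr itself held the most reads of any gene. Its body had 31 pairs and 1250 reads, 29.3% ± 6.72 of the reads in range over the control-named and 32.1% ± 6.84 over the IFNγ-named libraries. The library values were 33.8%, 27.7%, 20.6% and 35.3%, and 28.5%, 42.3%, 27.8% and 29.7%, so the tables overlapped. Egflam, which encodes the matrix protein pikachurin and lies 76.5 to 268.8 kb downstream on the opposite strand, came next with 14 pairs and 543 reads. It held 8.13%, 18.7%, 15.4% and 12.7% in the control-named and 22.3%, 12.6%, 11.3% and 10.998% in the IFNγ-named libraries. The values overlapped here too, and the mean difference of 0.552 points was far below the SDs of 4.48 and 5.39. Outside protein-coding genes lay 57 pairs with 1903 reads, 49.4% ± 4.75 and 45.1% ± 4.29.

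Osmr had 3 pairs and 106 reads. The counts were 8, 7, 20 and 11 in the control-named and 7, 11, 26 and 16 in the IFNγ-named libraries, or 2.22% ± 1.28 and 3.21% ± 1.73 of the reads in range. The fragment at the Osmr TSS, 254.6 kb upstream, held only 15 of these reads: 1, 1, 8 and 1 in the control-named libraries and 0, 1, 2 and 1 in the others. Of the Osmr reads, 53 fell in an intron 268.0 kb upstream (chr15:6861347-6861770). That intronic fragment had 4, 5, 9 and 7 reads in the control-named and 5, 9, 5 and 9 in the IFNγ-named libraries, a narrow range with no library apart. Its deposited scores were 4.47 and 4.64, below the level of 5 used here for a called contact.

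C9, a terminal complement component, also had 106 reads, in 2 pairs. Of them 59 came from control-named library 1, and the 7 others held 5 to 9. Gdnf, a neurotrophic factor gene, had 53 reads, and Wdr70, which encodes a WD-repeat protein, had 26, with 19 of the latter in IFNγ-named library 4. Nup155, a nuclear pore gene, had 20 reads and Fyb, an adaptor gene of T cells, 19. Dab2, an endocytic adaptor gene, and Rictor, a subunit gene of mTOR complex 2, had no pair with reads among the 249 and 156 listable fragments at each. Of the 8 genes with 10 or more reads, 0 had tables that did not overlap (0%). Their exact permutation p ran from 0.2 at Wdr70 to 0.914 at Egflam, with adjusted p of 0.823 to 0.914. Per listable fragment Lifr had 8.12 reads, Egflam 1.48, Gdnf 1.13, C9 1.01 and Osmr 0.855, values that are not corrected for distance.

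**Figure D3:**
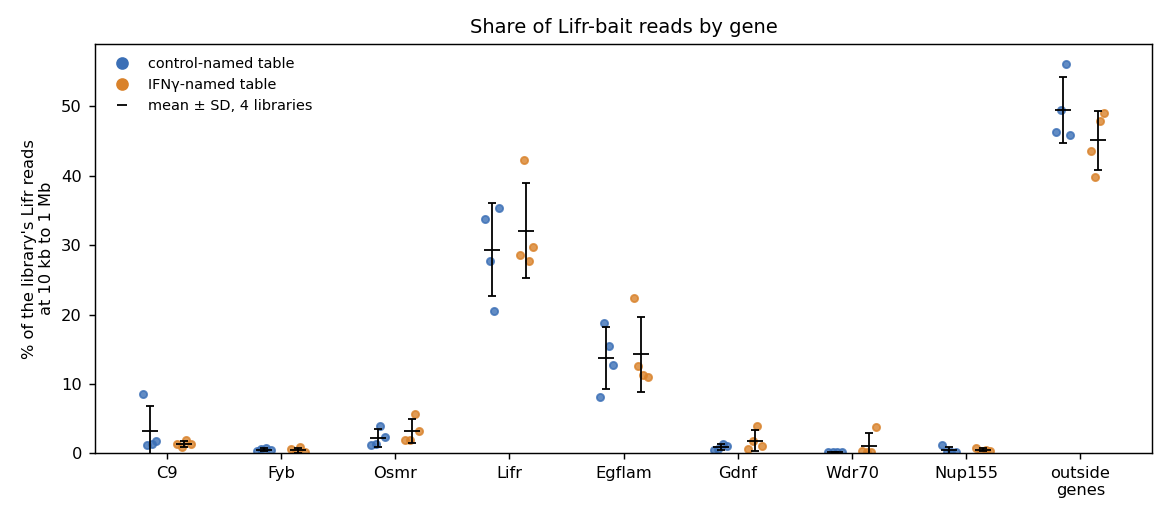
Percent of each library's Lifr reads at 10 kb to 1 Mb (y axis) by gene and outside genes (x axis), points being libraries and black marks the mean ± SD of 4 libraries per table. Lifr and the space outside genes hold most reads, and the tables overlap at each of the 8 genes.

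Of the LIF and gp130 signalling genes on a fixed list, 2 of 22 have a TSS in range, Lifr and Osmr. At any distance the Lifr bait had reads within 1 kb of a TSS of 3 of them: Lifr with 185 reads (135 in 3 pairs in range and 50 in 1 pair under 10 kb), Osmr with 15, and Stat3 with 5 in a pair between baits. Of 14 interferon pathway genes, 0 have a TSS in range and 1 had reads at a TSS, Ciita with 57, which is baited as well. Both ends of a pair between baits are enriched, so such counts are not comparable with the others.

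Alternative Lifr promoters were among the contacted fragments. The fragment 10.9 kb downstream holds the TSS of the internal transcripts, and had 5, 4, 1 and 6 reads in the control-named and 3, 3, 12 and 2 in the IFNγ-named libraries. Its merged values of 4 and 5 were close to the modelled background of 3.79 and 3.40. Near the most upstream Lifr TSS, the fragment 38.5 kb upstream had 5, 4, 3 and 4 reads, and 16, 4, 5 and 4. At 25.7 kb downstream, within 1 kb of the last Lifr TSS, counts were 5, 6, 3 and 7, and 8, 5, 3 and 17. In each of these 3 fragments the tables overlapped. Of the 10 pairs with the most reads, 6 lay between the Osmr and Lifr genes. At 73.6 kb upstream the counts were 25, 8, 9 and 7, against 4, 7, 12 and 9. At 52.4 kb upstream they were 6, 6, 6 and 4, against 10, 5, 6 and 29, and at 52.0 kb 6, 4, 2 and 4, against 4, 3, 46 and 8.

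Called contacts, at a deposited score of 5 or more, were 11 in all, and 0 of them were called in both tables. Of the 232 pairs of all baits called in either table, 29 were called in both (12.5%). The score is as deposited by the authors, not recomputed here, and rates each pair against distance and noise. Under the control name, 7 of 112 pairs were called (6.25%, against 11.8% of the pairs of all baits in range), 5 upstream and 2 downstream. Under the IFNγ name, 4 of 107 were called (3.74%, against 10.4%), all of them downstream. At a score of 4 or more, a level added after seeing the data, 42 and 32 pairs passed and 20 did so in both.

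The control-named calls lay 656.2, 227.2, 211.9, 163.0 and 122.9 kb upstream and 208.2 and 222.8 kb downstream. The pair at 163.0 kb upstream (chr15:6966442-6966843, intergenic) had the most reads, 111. It held 13, 14, 10 and 39 reads in the control-named and 10, 7, 8 and 10 in the IFNγ-named libraries, so every library was well covered and 1 stood above the rest. Scores were 5.44 and 4.75. The pair at 122.9 kb upstream held 9, 44, 4 and 6, against 3, 4, 8 and 9. At 211.9 kb upstream the counts were 33, 8, 5 and 5, against 6, 4, 8 and 8. In both of these pairs a single control-named library held most of its table's reads. The pair in a C9 intron at 656.2 kb upstream was the extreme case, with 54, 1, 2 and 1, against 2, 1, 1 and 2. The called pairs in Egflam introns held 6, 24, 9 and 3 against 4, 6, 5 and 6 at 208.2 kb downstream, and 5, 29, 7 and 3 against 4, 7, 8 and 7 at 222.8 kb.

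The pair 227.2 kb upstream (chr15:6902214-6902655), between Osmr and Lifr, was the only one of 102 tested whose libraries did not overlap between tables. Counts were 11, 6, 24 and 7 in the control-named and 3, 3, 3 and 4 in the IFNγ-named libraries, or, scaled to library depth (CPM), 398 ± 294 and 124 ± 21.2. The log2 difference was -1.77 (SE 0.650), with an unadjusted p of 0.0205 and an adjusted p of 0.284 (edgeR). Without control-named library 3 it was -1.06 (edgeR unadjusted p = 0.0888). Such a lack of overlap was found in 0.98% of the Lifr pairs and in 1.9% of the 1052 pairs of all baits in range with 10 or more reads.

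The IFNγ-named calls lay 153.7, 317.3, 352.2 and 592.2 kb downstream. The pair at 592.2 kb (chr15:7721480-7722048, intergenic) had the highest score of all Lifr pairs, 6.60, against 4.79 in the control-named table. It held 6, 10, 11 and 7 reads in the control-named and 8, 36, 15 and 13 in the IFNγ-named libraries, a log2 difference of 1.13 (SE 0.578, edgeR adjusted p = 0.284). The tables overlapped, and without the high IFNγ-named library 2 the log2 difference was 0.62. At 317.3 kb the counts were 9, 7, 6 and 8, against 13, 6, 17 and 8, the most even of the called pairs. In an Egflam intron at 153.7 kb they were 11, 6, 9 and 7, against 31, 9, 13 and 9. At 352.2 kb they were 4, 3, 4 and 6, against 3, 27, 5 and 1.

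**Figure D4:**
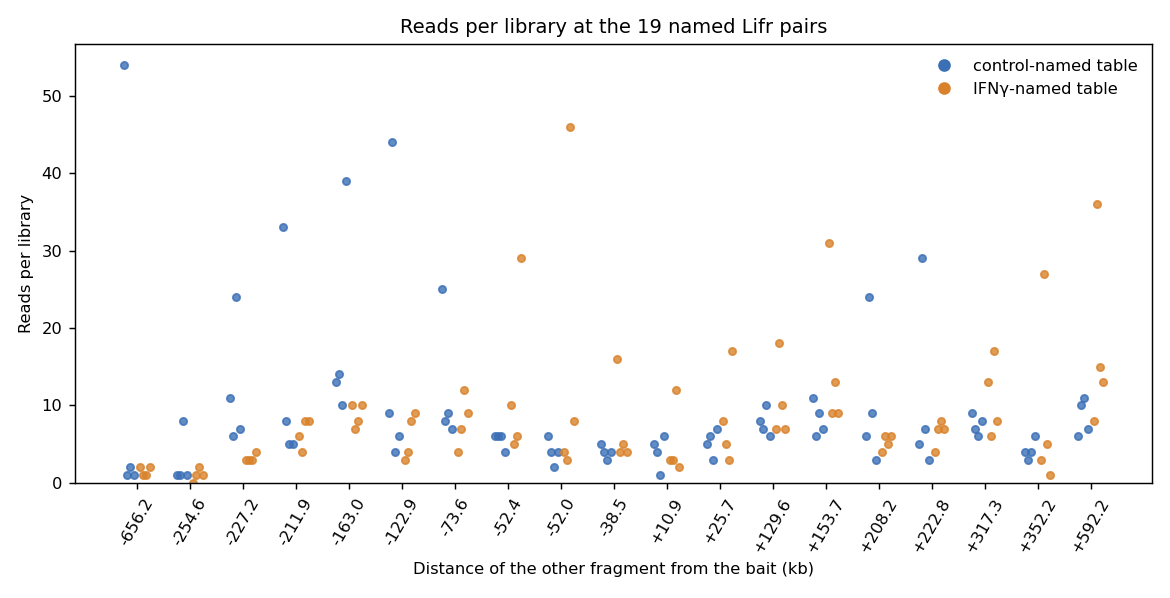
Reads per library (y axis) at the 19 named Lifr pairs (x axis, distance from the bait in kb, negative upstream), each point a library. Most points lie under 20 reads, and single libraries stand far above, as at 656.2 kb upstream with 54 reads.

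Single libraries dominated many pairs. Of the 80 Lifr pairs with 20 or more reads, 33 had over 50% of them in 1 library (41.3%), as did 43.7% of the 789 such pairs of the other baits. The leading library held 13 to 54 reads there, and of the 231 counts in the other libraries 131 were exactly 1, 2 were 0 and 66 were 3 or more. Among all 112 pairs, 92 had a read in all 8 libraries, but 22 had 3 or more in all 8 and 32 had 3 or more in only 1 library. What set the single reads was not tested. Of the 80 pairs with 20 or more reads, 15 had under 25% in any library. They included, beside those in Osmr and at 317.3 kb downstream, an Egflam intron at 129.6 kb with 8, 7, 10 and 6, against 7, 18, 10 and 7.

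No Lifr pair passed an adjusted p of 0.05 in edgeR, among 102 tested in range, and none of the 3673 pairs of all baits did (0%). At an unadjusted p under 0.05 there were 16 Lifr pairs (15.7%) against 16.6% of all pairs, and in DESeq2 8 Lifr pairs (7.84%) against 7.65% of all. The median log2 difference was -0.30 over the Lifr pairs and -0.09 over all pairs. In 10 kb windows none of 58 Lifr windows and none of 636 in all were called (0%). There 8 Lifr windows had an unadjusted p under 0.05 (13.8%, against 16.4% of all), and 6 in DESeq2 (10.3%, against 9.91%). The 3 windows with the smallest p each had an adjusted p of 0.290. At 240 to 250 kb upstream the counts were 1, 1, 1 and 1, against 1, 1, 2 and 30, so the log2 difference of 3.05 (SE 1.14) came from 1 library. At 130 to 140 kb upstream they were 12, 2, 39 and 2, against 1, 2, 3 and 1, a log2 difference of -2.78 (SE 1.04) that was -1.23 without control-named library 3 (edgeR unadjusted p = 0.137). At 30 to 40 kb upstream, over the first part of Lifr, they were 15, 17, 13 and 13, against 20, 53, 20 and 30. The log2 difference was 1.23 (SE 0.466), and without single libraries it ran from 0.944 to 1.39 (edgeR unadjusted p 0.0215 to 0.0665). Raw counts did not overlap there, but how many windows in all did so was not counted.

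Summed over steps of distance, which were chosen after the values were seen, 3 of 12 Lifr steps had tables that did not overlap (25%), against 5 of 167 steps of all baits (2.99%), Lifr included. Since the steps were chosen with the Lifr values known, nothing particular to Lifr is read from this. At 100 to 200 kb upstream the shares were 9.58%, 17.7%, 14.6% and 13.8% in the control-named and 6.50%, 4.86%, 7.16% and 7.13% in the IFNγ-named libraries. All 14 pairs of this step lay outside protein-coding genes, between Osmr and Lifr. At 20 to 50 kb upstream the IFNγ-named libraries were higher, with 9.89%, 16.9%, 10.4% and 9.57% against 7.26%, 9.16%, 6.32% and 7.68%. At 500 kb to 1 Mb downstream they were also higher, with 10.7%, 13.5%, 10.2% and 9.57% against 7.84%, 7.21%, 7.31% and 6.14%. By permutation each had an exact p of 0.0286, which is the floor for 4 against 4 libraries, and an adjusted p of 0.114 over the 12 steps. With the top pair of each library removed, the means at 100 to 200 kb upstream were 8.42% and 6.98% (exact p = 0.257). The top pairs of control-named libraries 2, 3 and 4 lay in this step and no IFNγ-named one did. This removal thus took reads of the step from the control-named side only. Removed in the same way, those at 20 to 50 kb upstream were 8.29% and 10.6% (exact p = 0.0571), a difference of 2.35 in place of 4.09 points. There only the top pair of IFNγ-named library 2 lay in the step. At 500 kb to 1 Mb downstream they were 7.76% and 11.98% (exact p = 0.0286, adjusted 0.343). No library's top pair lay in this last step, so the removal took no reads from it and could not test its dependence on single pairs. Its largest pair held 26 of 54, 10 of 37, 11 of 37 and 7 of 28 reads in the control-named libraries. In the IFNγ-named libraries the largest pair held 17 of 38, 36 of 75, 16 of 47 and 19 of 47. Counted as fragments with a read, the steps held 10.6% and 10.5% at 100 to 200 kb upstream, 11.3% and 10.5% at 20 to 50 kb upstream, and 10.6% and 10.004% at 500 kb to 1 Mb downstream.

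**Figure D5:**
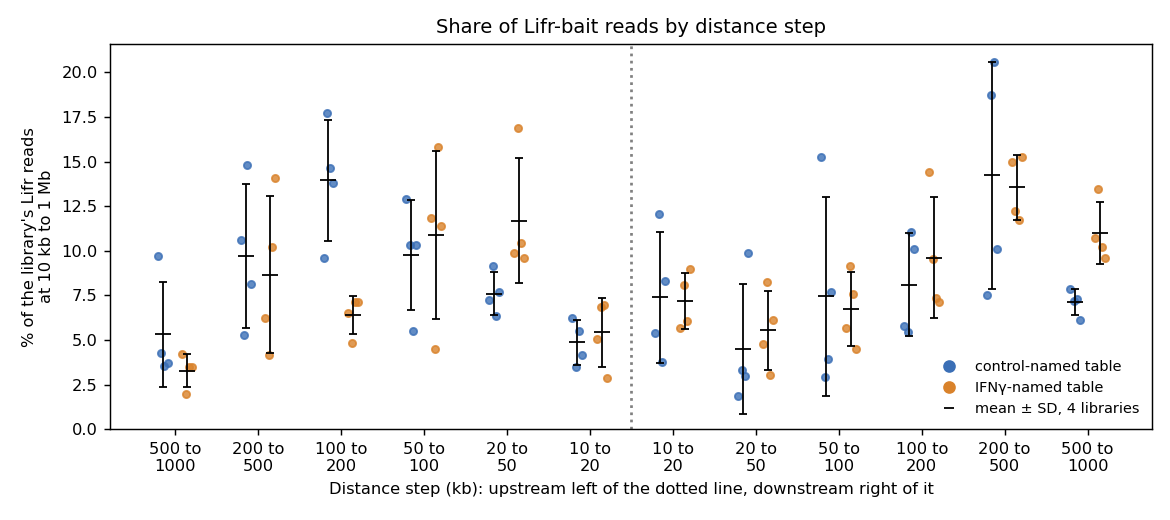
Percent of each library's Lifr reads at 10 kb to 1 Mb (y axis) by distance step in kb (x axis, upstream left and downstream right of the dotted line), points being libraries and black marks the mean ± SD of 4 libraries per table. The tables separate at 100 to 200 kb and 20 to 50 kb upstream and at 500 to 1000 kb downstream.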

How the data were processed

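Capture-C libraries were made from DpnII-digested organoid chromatin, per the labels' protocols. The submitters' processing notes name Bowtie2 and mm10. For versions, duplicate removal and caller settings, nothing is given in the sources used here. Of fragment pairs, 2 tables were deposited by the authors in the layout of the CHiCAGO contact caller. Per the file headers they hold read counts in 4 columns, read here as 4 libraries, a merged value treated as a score, a modelled background signal and a contact score. Columns name no mouse or passage.

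Tables were joined by fragment numbers, and a pair absent from 1 table was given a count of 0. Within each table the variance between libraries was 3.19 to 6.44 times that of counting error over Lifr pairs, and no libraries were identical. Pairs and windows with 10 or more reads were tested over all baits with edgeR 4.0.16 (quasi-likelihood, TMM, Benjamini-Hochberg, threshold 0.05; tested on simulated data), with DESeq2 1.42.0 as alternative in R 4.3.3. For shares, two-sided exact permutation and sign-flip tests were computed in Python 3.11.15 over all rearrangements of the libraries. Genes came from GENCODE and promoters from RefSeq, both on GRCm38. Named were genes with 10 or more reads, the 10 pairs with the most reads, pairs scoring 5 or more, pairs within 1 kb of a protein-coding TSS, and the 3 windows with the smallest p. Members and lists were chosen with earlier results of these data known. Reads carry no stated molecular identifiers, so depth limits precision and counts cannot be taken as independent molecules.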

Additional observations from a re-analysis of the deposited data

Results flagged for a closer look

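Of 94 groups of 4 libraries examined (shares and named pairs), 21 had a library far from the other 3 by Dixon's criterion. Its nominal rate of 5% is for continuous values, and these are small counts or shares of them. Where 3 counts are tied, as at 52.4 and 227.2 kb upstream, any other count is flagged. No excess over chance is therefore read from the 21. Groups share reads, so they are not independent.

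Shares of reads in range stood apart in 8 groups. In control-named libraries these were 8.56% at C9 (others 1.17% to 1.75%), 1.16% at Nup155 (0.195% to 0.219%) and 9.72% at 500 kb to 1 Mb upstream (3.56% to 4.29%). In IFNγ-named libraries they were 42.3% at Lifr (27.8% to 29.7%), 22.3% at Egflam (10.998% to 12.6%), 3.87% at Wdr70 (0.180% to 0.282%), 0.847% at Nup155 (0.360% to 0.434%) and 16.9% at 20 to 50 kb upstream (9.57% to 10.4%).

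Counts of named pairs stood apart in 13 groups. Upstream, high control-named libraries held 54 reads at 656.2 kb, 8 at 254.6 kb, 33 at 211.9 kb, 39 at 163.0 kb, 44 at 122.9 kb and 25 at 73.6 kb. A low one held 4 at 52.4 kb, where the others held 6. High IFNγ-named libraries held 46 reads at 52.0 kb and 16 at 38.5 kb upstream, and 4 at 227.2 kb upstream where the others held 3. Downstream, single libraries held 12 reads at 10.9 kb and 27 at 352.2 kb (IFNγ-named) and 29 at 222.8 kb (control-named).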

How the results depend on the processing

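No paired analysis was possible because the count columns carry no mouse or passage. The excess of Lifr over the mean of the other baits at 10 kb to 1 Mb kept its direction in 11 of 11 alternatives (4.36 to 5.60 points). It also kept its side of the threshold (exact sign-flip p 0.00781 to 0.0156), in a test over libraries and not over baits. The upstream share (-7.38 to -0.38 points) and the share in range (0.147 to 4.21) kept direction and missed the threshold in 12 of 12 each. Counts of called pairs, windows and genes stayed at 0 in every alternative run. With a filter of 1 read, 168 of 30435 pairs of all baits passed in edgeR, none of them a Lifr pair in range. Without TMM factors the median log2 difference was -0.18 over Lifr pairs and 0.03 over all pairs. The bait total turned to 0.072 with reads in range only, and ran from -0.190 to 0.0315 without single libraries, turning without control-named library 4 (0.02) or IFNγ-named library 2 (0.032). Called contacts numbered 90 and 72 at a score of 3, 42 and 32 at 4 (added after seeing the data), and 0 and 0 at 7.

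Gene shares turned direction, none past the threshold. Counting fragments gave 0.0235 at C9, 0.0117 at Fyb, -0.215 at Osmr and -0.131 at Lifr, and dropping top pairs gave 0.181 at C9 and -1.79 at Egflam. Without single libraries the ranges were -0.210 to 0.0194 at Fyb, -0.662 to 4.72 at Lifr, -2.12 to 2.21 at Egflam and -0.0429 to 0.308 at Nup155. Without single libraries the steps ran from -8.98 to -6.26 (100 to 200 kb upstream), 2.35 to 4.80 (20 to 50 kb upstream) and 3.04 to 4.35 (500 kb to 1 Mb downstream). By fragments the steps gave -0.837 (20 to 50 kb upstream) and -0.593 (500 kb to 1 Mb downstream). Log2 ranges of pairs that turned were -3.37 to 0.22 at 656.2 kb, -0.99 to 0.19 at 211.9 kb and -0.709 to 0.0305 at 73.6 kb upstream. Downstream they were -0.41 to 0.84 at 10.9 kb, -0.86 to 0.40 at 222.8 kb and -0.34 to 1.48 at 352.2 kb. Each such pair turned when its highest library was left out; other causes were not tested. With 3 against 4 libraries the exact p cannot go below 0.0286.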
